A study of Mus musculus with 9 samples.

Results

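The leukocyte β2 integrins were followed through single-nucleus RNA sequencing of 9 mouse hearts, by their chain genes Itgam, Itgb2, Itgal and Itgax, which are 4 of the 32285 genes in the files. The members were taken by gene symbol and not by a rule on measured values, though earlier results of these data were known. Their identifiers are ENSMUSG00000030786 for Itgam, ENSMUSG00000000290 for Itgb2, ENSMUSG00000030830 for Itgal and ENSMUSG00000030789 for Itgax. All 9 hearts came from male wild-type mice aged 9 to 10 weeks, and each heart gave 1 library. NS-Sham hearts (n = 3) had a thoracotomy only and the mice received saline (NS). NS-I/R hearts (n = 3) had the left anterior descending coronary artery closed for 45 min and then 24 h of reperfusion (ischemia/reperfusion, I/R), with saline. Enpa-I/R hearts (n = 3) had the same injury in mice given 2 intraperitoneal doses of 5 mg/kg enpatoran, a small-molecule antagonist of the RNA-sensing receptor TLR7, the first 1 h before ischemia. The terms shams, saline I/R and enpatoran I/R stand for these groups. No sham group with enpatoran was analysed here, so the drug's effect without injury could not be measured.

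β2 integrins are adhesion receptors of white blood cells. Itgb2 encodes the shared β chain, CD18, and each α chain pairs with it. Itgam encodes CD11b, which with CD18 forms Mac-1, the receptor of neutrophils, monocytes and macrophages for ICAM-1, fibrinogen and the complement fragment iC3b. Itgal encodes CD11a of LFA-1, which holds lymphocytes and neutrophils on ICAM-bearing endothelium, and Itgax encodes CD11c of the complement receptor common on dendritic cells. In an infarcted heart these receptors bring neutrophils and then monocytes through the vessel wall.

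Promoters are shown as background for the α chain genes Itgam and Itgax, which lie in tandem on one chromosome. RefSeq's promoter table (build GRCm38.p6, 250 bases before to 50 after the annotated start) held 2 of the 4 members, Itgam at chr7:128062390-128062689 and Itgax at chr7:128129300-128129599, both on the plus strand. Capitals mark GAGGAA, a sequence bound by the myeloid factor PU.1, or its reverse complement TTCCTC, which 28.3% of 32851 promoters of this length held on either strand.
Itgam: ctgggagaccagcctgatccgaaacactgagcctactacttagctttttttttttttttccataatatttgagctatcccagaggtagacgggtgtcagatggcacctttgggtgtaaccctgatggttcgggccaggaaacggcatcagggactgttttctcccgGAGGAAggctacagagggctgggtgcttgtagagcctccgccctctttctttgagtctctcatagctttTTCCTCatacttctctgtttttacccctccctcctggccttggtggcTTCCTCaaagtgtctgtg
Itgax: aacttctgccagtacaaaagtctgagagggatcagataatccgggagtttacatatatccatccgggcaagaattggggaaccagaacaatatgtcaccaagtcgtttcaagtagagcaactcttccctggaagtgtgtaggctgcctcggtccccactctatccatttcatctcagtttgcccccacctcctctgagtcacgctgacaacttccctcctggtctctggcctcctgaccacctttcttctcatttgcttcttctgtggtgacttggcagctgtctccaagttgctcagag
The Itgam window held 3 such matches, and the Itgax window held 0. Shorter or altered forms of the site were not searched, and no link of these letters to the response to injury was tested. A match describes letters in this window and is not evidence of binding.

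Nuclei were grouped by clustering without the members, and named by marker genes. Of 56766 barcodes, 41979 nuclei were kept, in 27 clusters, with 19.7 to 39.0 M UMIs (unique molecular identifiers, each counting 1 captured RNA) per library in the files and a median of 2365 to 3263.5 UMIs per kept nucleus. Any 2 libraries shared 5 to 20 barcodes. Macrophage-like nuclei numbered 823 in the shams, 1404 after saline I/R and 1136 after enpatoran I/R, neutrophil-like nuclei 6, 1361 and 324, T/NK-like nuclei 58, 91 and 48, and B-like nuclei 105, 89 and 59. NS-I/R replicate 3 stood apart: at a finer clustering, 269 of its 553 neutrophil-like nuclei lay in an S100a8/S100a9-led cluster, against 22 of 408 and 15 of 400 in the other NS-I/R libraries. Its Itgam level was the lowest of its group in both macrophage-like and neutrophil-like nuclei, and results of the members whose call changed without it are given both ways. Within finer macrophage clusters more of all genes were called without it, as given below. For whole classes and for all nuclei that share is not given, so member calls made without it cannot be set against it. 1 cluster, led by heat-shock genes and nearly all from NS-I/R (413 nuclei, against 1 and 10), stayed unnamed.

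Of the leukocyte classes, only macrophage-like nuclei were numerous enough to be tested against the shams. The level of Itgam, the CD11b gene, in macrophage-like nuclei was 159, 170 and 205 CPM (the gene's UMIs per M UMIs of the class in that library) in the NS-Sham hearts, 1542, 1662 and 978 after saline I/R and 747, 655 and 687 after enpatoran I/R. The 3 groups did not overlap, and every enpatoran heart lay between the shams and the saline-injured hearts. Here and below, groups that do not overlap are only described. The share of all genes with such groups is not given, so this is no support beside a test. Itgam rose by 2.93 log2 units (SE 0.20, adjusted p = 5.67e-08) from NS-Sham to NS-I/R and was lower by a log2 difference of −1.01 (SE 0.18, adjusted p = 0.00447) after enpatoran I/R than after saline I/R, by edgeR's quasi-likelihood test with Benjamini-Hochberg adjustment over 10392 genes. Enpa-I/R stayed above NS-Sham by 1.92 (adjusted p = 9.06e-06), a comparison that shares its samples with the other 2. Without NS-I/R replicate 3 the enpatoran difference was −1.20 and the injury difference 3.14.

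Itgb2, the common CD18 chain, moved the same way after injury. Its level was 74.0, 54.2 and 69.1 CPM in the shams, 207, 221 and 185 after saline I/R and 157, 149 and 166 after enpatoran I/R macrophage-like nuclei. The groups again did not overlap. Itgb2 rose by 1.60 log2 units after injury (SE 0.17, adjusted p = 5.84e-06, edgeR). The enpatoran difference of −0.38 (SE 0.15) did not pass the test (adjusted p = 0.154), though it did without NS-I/R replicate 3 (−0.44, adjusted p = 0.0459). Enpa-I/R stayed above NS-Sham by 1.22 (adjusted p = 0.00022).

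Neither of the other α chains changed measurably over the macrophage class. Itgal, the LFA-1 chain, had 45.6, 26.2 and 10.2 CPM in the shams, 56.8, 24.7 and 32.8 after saline I/R and 23.7, 16.2 and 40.7 after enpatoran I/R. Its groups overlapped, with log2 differences of 0.35 after injury (adjusted p = 0.557) and −0.55 with enpatoran (adjusted p = 0.461). Itgax, the CD11c chain, had 26.8, 14.0 and 23.0 CPM in the shams, 17.0, 9.5 and 46.1 after saline I/R and 34.2, 22.4 and 30.5 after enpatoran I/R. Its highest and its lowest library were both NS-I/R hearts, and the enpatoran difference of 0.22 (adjusted p = 0.805) became 1.10 (adjusted p = 0.0383) without NS-I/R replicate 3, so that 1 library decided it. A finer clustering (Leiden resolution 2) puts nuclei led by antigen-presentation genes outside the class. There the log2 difference of Itgal after injury was 2.88. The shams then held 9 Itgal UMIs in 766 nuclei, and the gene passed the low-count filter through the injured hearts, so no call is drawn. In all, 2 of the 4 members were called after injury, where 35.0% of the tested genes were, 1 of 4 between Enpa-I/R and NS-I/R, against 6.44%, and 2 of 4 between Enpa-I/R and NS-Sham, against 17.7%.

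**Figure D1:**
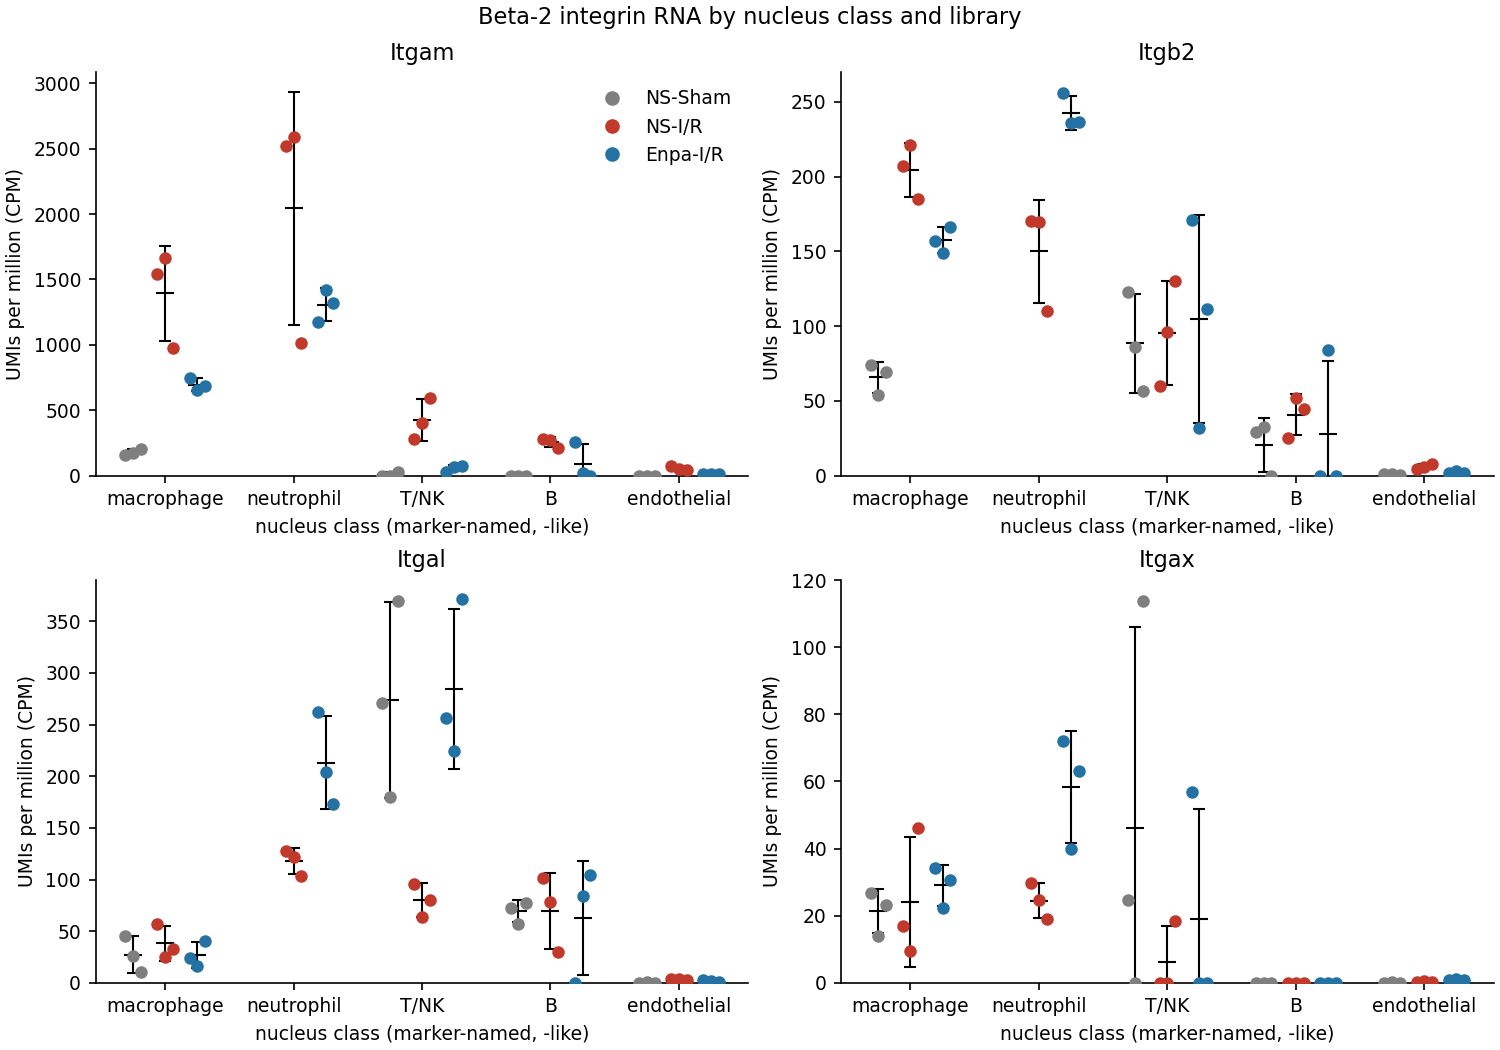
Level of each member (CPM, separate axis for each gene) in macrophage-, neutrophil-, T/NK-, B- and endothelial-like nuclei, 1 point per library, with the group mean as a line and the SD as bars; the 6 sham neutrophil-like nuclei are not drawn. Itgam in macrophage-like nuclei separates the groups, from 159 to 205 CPM for NS-Sham over 655 to 747 for Enpa-I/R to 978 to 1662 for NS-I/R.

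The change was also visible nucleus by nucleus. A macrophage-like nucleus held on average 0.441 Itgam UMIs in the shams, 3.43 after saline I/R and 2.03 after enpatoran I/R. After thinning every nucleus to 1000 UMIs, which removes the difference in depth, 14.7% ± 5.62 (SD, n = 3) of NS-Sham, 60.9% ± 7.19 of NS-I/R and 40.1% ± 1.06 of Enpa-I/R macrophage-like nuclei held an Itgam UMI. The unthinned shares were 25.9%, 73.2% and 60.6%. Shallower nuclei were left out of the thinned shares, 103, 188 and 109 in the 3 groups. The thinned groups did not overlap, and an exact permutation test (two-sided) gave 0.1 in each comparison, the smallest p that 3 against 3 libraries allow (adjusted p = 0.267 over 16 tests). The saline I/R share was 64.7% without NS-I/R replicate 3. In endothelial-like nuclei, which should not make CD11b, the unthinned share with an Itgam UMI was 0.060%, 10.2% and 2.40%. Macrophage-like nuclei had a median of 1902.5 to 3241 UMIs per library, endothelial-like ones 1500 to 2135. Nuclei with 5 or more Itgam UMIs after thinning made up 0% of NS-Sham, 6.27% ± 4.47 of NS-I/R and 0.906% ± 0.379 of Enpa-I/R macrophage-like nuclei.

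The makeup of the macrophage class moved with the groups. A finer clustering, tried after the data were seen, parted it into nuclei led by Mrc1 and Cd163, genes of resident-type heart macrophages (766, 635 and 698 nuclei in the shams, NS-I/R and Enpa-I/R), nuclei led by Arg1, Tgfbi and Msr1, genes of recruited and wound macrophages (0, 728 and 351), and a small unnamed cluster led by Cd74, Wdfy4, H2-Aa and Ciita, genes of antigen presentation (58, 37 and 84). F13a1 and Mrc1 were among the 10 leading genes of both large clusters, so the names Mrc1-led and Arg1-led are labels of convenience. Within the Mrc1-led nuclei Itgam was 127, 153 and 190 CPM in the shams, 783, 820 and 504 after saline I/R and 493, 474 and 468 after enpatoran I/R. It rose there by 2.08 log2 units after injury (adjusted p = 4.19e-06, edgeR), where 22.5% of the genes tested in these nuclei were called. The enpatoran difference within them was −0.52 and did not pass the test (adjusted p = 0.151, with 1.81% of genes called), and the lowest NS-I/R library lay just above the highest Enpa-I/R one.

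The Arg1-led nuclei, of which sham hearts had 0, held the higher Itgam level. It was 2468, 2556 and 1318 CPM after saline I/R and 1209, 1035 and 1069 after enpatoran I/R. The log2 difference of −0.94 within these nuclei did not pass the test (adjusted p = 0.0902, edgeR). Of the genes tested there, 0.315% were called. Without NS-I/R replicate 3 the enpatoran difference in Itgam passed within both clusters, so that 1 library decided these calls. It was then −0.69 (adjusted p = 0.00391) in the Mrc1-led and −1.18 (adjusted p = 6.42e-05, edgeR) in the Arg1-led nuclei. The share of all tested genes called was higher in these refits as well, at 15.2% in the Mrc1-led and 15.1% in the Arg1-led nuclei. In the small Cd74-led cluster Itgam was higher in value with enpatoran, at 941, 550.0 and 754 CPM against 322, 406 and 630.0 after saline I/R, with overlapping groups. How much the number of Arg1-led nuclei and the level within clusters each added to the difference over the class was not tested. Itgb2 rose within the Mrc1-led nuclei as well (1.41 after injury, adjusted p = 0.000177), and Enpa-I/R stayed above NS-Sham there by 1.10 (adjusted p = 0.00308, edgeR), where 8.07% of genes were called. Its enpatoran differences were −0.30 (adjusted p = 0.395) and −0.24 (adjusted p = 0.619) within the Mrc1-led and Arg1-led nuclei.

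Itgal and Itgax lay mostly in the antigen-presentation cluster in the shams. In NS-Sham, 52 of the 61 Itgal UMIs and 32 of the 41 Itgax UMIs of the macrophage class lay in its 58 nuclei. After saline I/R it held 6 Itgal UMIs, against 91 in the Arg1-led and 39 in the Mrc1-led nuclei, and 39 Itgax UMIs, against 43 and 7. After enpatoran I/R it held 27 Itgal UMIs, against 47 and 10, and 63 Itgax UMIs, against 21 and 11. Itgax was 198, 98.4 and 233 CPM in the shams, 286, 174 and 464 after saline I/R and 281, 180 and 335 after enpatoran I/R in this cluster, whose groups overlapped, and no more than 7.68 CPM in any library of the Mrc1-led nuclei. Itgal was 330, 308 and 51.8 CPM in the shams, 35.7, 0 and 82.9 after saline I/R and 64.9, 31.7 and 302 after enpatoran I/R. Some of these libraries hold as few as 6 such nuclei, so no test was run. In the Mrc1-led nuclei Itgal was 3.03 to 7.13 CPM in the shams, 15.4 to 34.3 after saline I/R and 1.89 to 6.28 after enpatoran I/R. All 3 saline-injured hearts lay above the other 6 there. With all 9 libraries in the fit these counts were too low for the test's filter. Some refits with 1 library left out kept the gene through its NS-I/R counts, so no call is drawn from them.

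**Figure D2:**
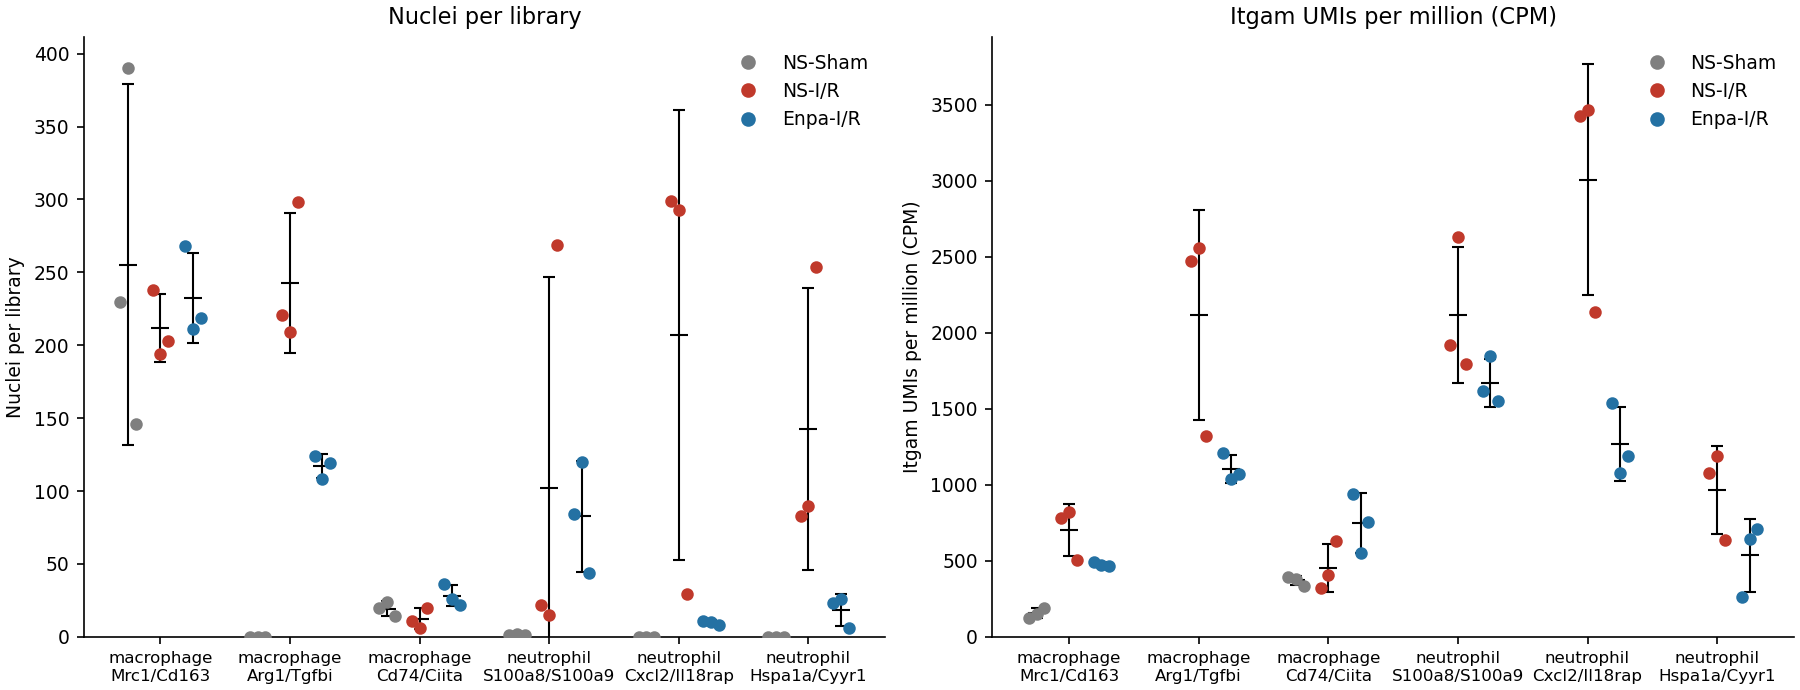
Nuclei per library (left) and Itgam level in CPM (right) in the finer clusters of the macrophage and neutrophil classes, each labelled by its class and 2 of its 10 leading genes, 1 point per library with group mean and SD; Itgam of the 4 sham nuclei in the S100a8/S100a9-led cluster is not drawn. For NS-I/R, Itgam spans 2133 to 3464 CPM in the Cxcl2/Il18rap-led neutrophil cluster and 1318 to 2556 in the Arg1-led macrophages; for Enpa-I/R it is higher in the S100a8/S100a9-led cluster (1548 to 1844) than in the Cxcl2/Il18rap-led one (1078 to 1540).

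Neutrophil-like nuclei were nearly all from injured hearts. Sham hearts held 6 neutrophil-like nuclei, with 11 Itgam, 3 Itgb2, 6 Itgal and 2 Itgax UMIs, too few to compare. The Itgam level in neutrophil-like nuclei was 2523, 2593 and 1015 CPM after saline I/R and 1175, 1423 and 1323 after enpatoran I/R. The NS-I/R group held both the highest libraries and the lowest one, and the difference of −0.65 (SE 0.33) did not pass the test (adjusted p = 0.314, edgeR over 6560 genes). Without NS-I/R replicate 3 the difference was −0.99 (adjusted p = 0.000356, edgeR). The share of all genes called in that refit is not given, so this call cannot be set against it.

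The other members had higher values in the enpatoran hearts. Itgal was 128, 122 and 103 CPM after saline I/R and 262, 204 and 173 after enpatoran I/R. Itgb2 was 170.0, 169.9 and 110.4 CPM after saline I/R and 255.9, 235.8 and 236.3 after enpatoran I/R. Itgax was 29.6, 24.8 and 19.1 CPM after saline I/R and 72.2, 40.0 and 63.0 after enpatoran I/R. None of these 3 genes passed edgeR's test: the log2 differences were 0.90 for Itgal (adjusted p = 0.0959), 0.71 for Itgb2 (0.180) and 1.21 for Itgax (0.154). By edgeR 0 of 4 members were called, against 2.07% of all genes tested. An unadjusted p under 0.05 was reached by 3 of 4 members and by 1214 of the 6560 genes. DESeq2 called 0 of 4, against 3.95% of its genes. Without NS-I/R replicate 3 Itgal passed (0.78, adjusted p = 0.0279), while Itgb2 (0.49, adjusted p = 0.125) and Itgax (0.97, adjusted p = 0.151, edgeR) did not.

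The neutrophil class also differed in makeup. Its finer clusters, each called by 2 of its 10 leading genes, were an S100a8/S100a9-led one (306 nuclei after saline I/R, 248 after enpatoran I/R), a Cxcl2/Il18rap-led one (621 and 29) and an unnamed one with Hspa1a and Cyyr1 (427 and 55). The unnamed one also had the neutrophil genes Csf3r, Il1r2 and Chil3 among its leading genes, and its second-best marker score was endothelial. Itgam was 1920, 2629 and 1797 CPM after saline I/R and 1615, 1844 and 1548 after enpatoran I/R in the S100a8/S100a9-led nuclei, where the groups overlapped. It was 3423, 3464 and 2133 CPM after saline I/R and 1540, 1078 and 1186 after enpatoran I/R in the Cxcl2/Il18rap-led nuclei, where they did not, though each enpatoran library holds only 8 to 11 of these nuclei. Itgb2 in the S100a8/S100a9-led nuclei was 171, 229 and 211 CPM against 300, 334 and 238, and Itgal was 171, 114 and 208 against 300, 276 and 238. The NS-I/R libraries hold from 15 to 269 of these nuclei, most of them in NS-I/R replicate 3. The other NS-I/R values therefore rest on few UMIs, and no test was run. The neutrophil marker list summed to 5560 to 7539 CPM after saline I/R and 11625 to 14148 after enpatoran I/R, so the sum of these 9 markers moved with the group, and its part in the members' differences was not tested.

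A joint fit compared the enpatoran response of the 2 cell types. The difference between Enpa-I/R and NS-I/R was larger in neutrophil-like than in macrophage-like nuclei by 1.07 log2 units for Itgb2 (SE 0.29, adjusted p = 0.0398) and by 1.45 for Itgal (SE 0.40, adjusted p = 0.0367), an edgeR interaction term added after seeing the data. Itgam (0.38, adjusted p = 0.590) and Itgax (0.93, adjusted p = 0.558) did not pass, so 2 of 4 members were called, against 2.21% of all genes. The Itgb2 call was lost with each of the 6 libraries left out, at adjusted p from 0.0520 to 0.341. The Itgal call was lost without NS-I/R replicate 1, Enpa-I/R replicate 1 or Enpa-I/R replicate 2.

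Lymphocytes were scarce and are given as values. Itgal, the lymphocyte LFA-1 chain, was 271, 180 and 370 CPM in T/NK-like nuclei of NS-Sham, 96.1, 64.0 and 80.4 after saline I/R and 256, 225 and 372 after enpatoran I/R. All 3 NS-I/R libraries lay below the other 6. These values rest on 45, 25 and 26 Itgal UMIs. Itgam, which NK cells can also carry, was 0, 0 and 28.4 CPM in the shams, 276, 400 and 594 after saline I/R and 28.4, 64.2 and 74.4 after enpatoran I/R. Markers of other cells moved with it: the macrophage list summed to 28.4 to 98.4 CPM in the shams, 72.1 to 3772 after saline I/R and 56.9 to 372 after enpatoran I/R, and the neutrophil list to 0 to 28.4, 300 to 2307 and 32.1 to 706. The T/NK list itself was 2928 to 6001, 2535 to 3057 and 3839 to 5205 CPM. The part of these markers in the lower Itgal value was not tested.

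Itgal levels in B-like nuclei overlapped between the groups. They were 72.9, 57.4 and 77.6 CPM in the shams, 102, 77.9 and 29.8 after saline I/R and 0, 84.0 and 105 after enpatoran I/R. No Itgax UMI was seen in any of them, which allows up to 13.9, 16.4 and 25.2 CPM in the 3 groups by 3 counts over each group. No Itgam UMI was seen in 105 NS-Sham nuclei, while NS-I/R libraries had 280, 273 and 209 CPM, beside a neutrophil marker sum of 0 in the shams and 597 to 1910 CPM after saline I/R.

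The order of the cell types differed between members. The 6 sham neutrophil-like nuclei were too few to rank and were left out. They held 1.83 Itgam UMIs per nucleus, against 0.441 in sham macrophage-like nuclei, and 1 Itgal UMI, against 0.776 in sham T/NK-like nuclei. For Itgam, macrophage-like nuclei led the ranked classes in the shams, and neutrophil-like and macrophage-like nuclei overlapped after saline I/R. Neutrophil-like nuclei lay above macrophage-like ones in every Enpa-I/R library. Itgb2 was higher in macrophage-like than in neutrophil-like nuclei after saline I/R (185 to 221 against 110.4 to 170.0 CPM) and the other way round after enpatoran I/R (149 to 166 against 235.8 to 255.9). Among the ranked classes of the shams, Itgal led in T/NK-like nuclei, above B-like and then macrophage-like nuclei with no overlap. In NS-I/R neutrophil-like nuclei led, and T/NK-like, B-like and macrophage-like neighbours overlapped. In Enpa-I/R T/NK-like and neutrophil-like nuclei overlapped, above the rest.

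Free RNA set a floor under these values. In 6 classes that are not leukocytes, Itgam was 0.0007 to 0.0062 UMIs per nucleus in the shams, 0.123 to 0.170 after saline I/R and 0.025 to 0.0873 after enpatoran I/R, pooled over each group. A macrophage-like nucleus held 143, 23.9 and 45.1 times the median of those classes, whose own median depths spanned 3.95, 5.21 and 4.92 times from the shallowest to the deepest. In NS-I/R a T/NK-like nucleus held 1.58 and a B-like nucleus 0.517 Itgam UMIs, beside a median of 0.144 over those classes. In endothelial-like nuclei alone Itgam was 0.4, 0.4 and 0 CPM in the shams, 74.6, 51.6 and 44.5 after saline I/R and 11.3, 14.2 and 10.0 after enpatoran I/R, and passed the test in each comparison (7.28 after injury and −2.22 with enpatoran, edgeR). Subtracting the mean of endothelial-, fibroblast- and cardiomyocyte-like nuclei in each library moved the log2 ratio of macrophage Itgam UMIs per nucleus from 2.97 to 2.91 after injury and from −0.78 to −0.74 with enpatoran. For neutrophil-like nuclei the enpatoran ratio moved from −0.86 to −0.82 for Itgam, from 0.43 to 0.49 for Itgb2 and from 0.58 to 0.62 for Itgal.

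**Figure D3:**
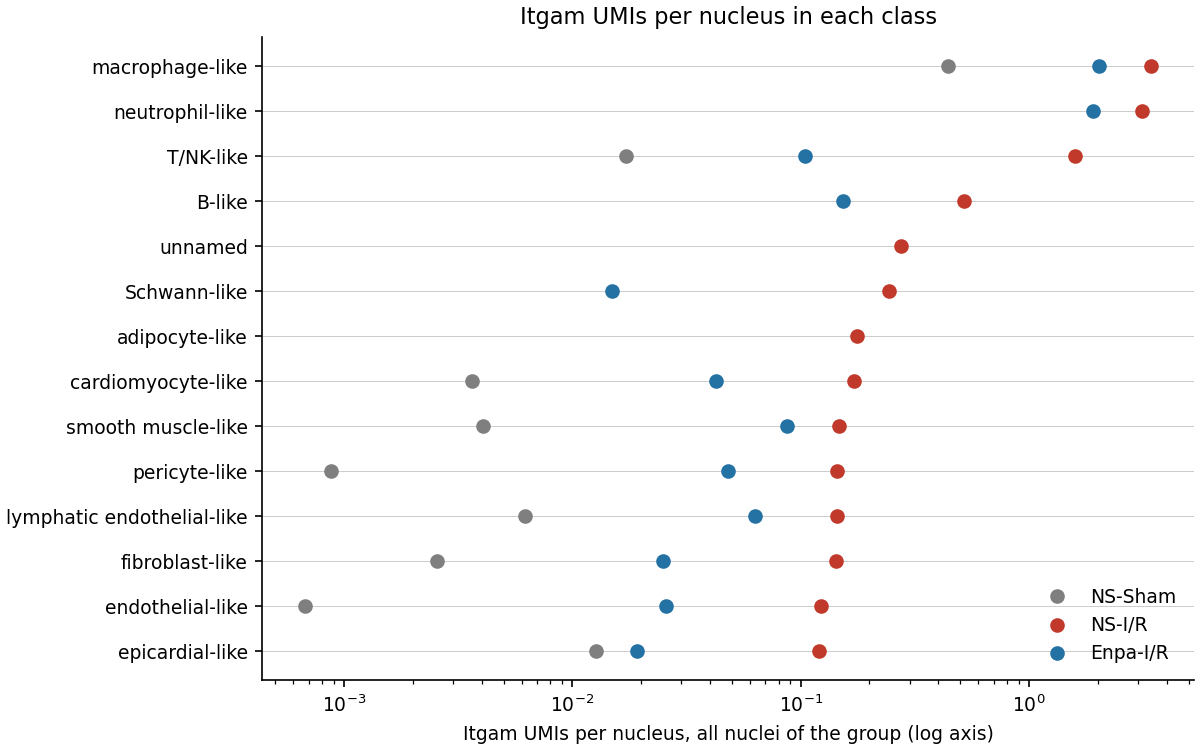
Itgam UMIs per nucleus on a log axis, 1 point per class and group, pooled over the 3 libraries of the group; a group with under 25 nuclei of a class or with no Itgam UMI there has no point. Macrophage-like nuclei (0.441, 3.43 and 2.03) stand above every non-leukocyte class of their own group, and the classes that are not leukocytes are ordered by group as well.

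Over whole hearts, level per nucleus and number of leukocytes add up. Macrophage-like nuclei gave 90.5%, 43.3% and 70.1% of all Itgam UMIs in the shams, NS-I/R and Enpa-I/R (means of 3 libraries), and neutrophil-like nuclei gave 2.71%, 38.3% and 17.3%. Nuclei that were no leukocytes or had no name gave 6.46%, 16.6% and 12.3%. Of Itgal UMIs, T/NK-like nuclei gave 33.3% in the shams and 4.30% after saline I/R, where neutrophil-like nuclei gave 48.1%. Summed over all nuclei, Itgam was 6.5, 6.5 and 6.8 CPM in the shams, 207, 162 and 140 after saline I/R and 44.5, 79.4 and 41.0 after enpatoran I/R. It rose by 4.56 log2 units after injury and was lower with enpatoran (−1.55, adjusted p = 0.00704, edgeR over 18066 genes).

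All 4 members rose after injury in this sum, where 47.8% of genes were called and 23.9% were called higher, with Itgb2 at 2.64, Itgal at 1.63 (adjusted p = 0.00121) and Itgax at 1.38 (adjusted p = 0.0221). With enpatoran 1 of 4 was called, against 16.5% of genes, and Itgb2 (−0.62, adjusted p = 0.0668), Itgal (−0.85, adjusted p = 0.0572) and Itgax (0.00, adjusted p = 0.998) did not pass. Against NS-Sham, Enpa-I/R hearts kept 3 of 4 members called, against 21.1%. In such a sum, fewer cells of a type and less RNA per cell cannot be told apart. Without NS-I/R replicate 3 Itgax no longer passed after injury (0.84, adjusted p = 0.0599), and Itgal passed with enpatoran (adjusted p = 0.0496).

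**Figure D4:**
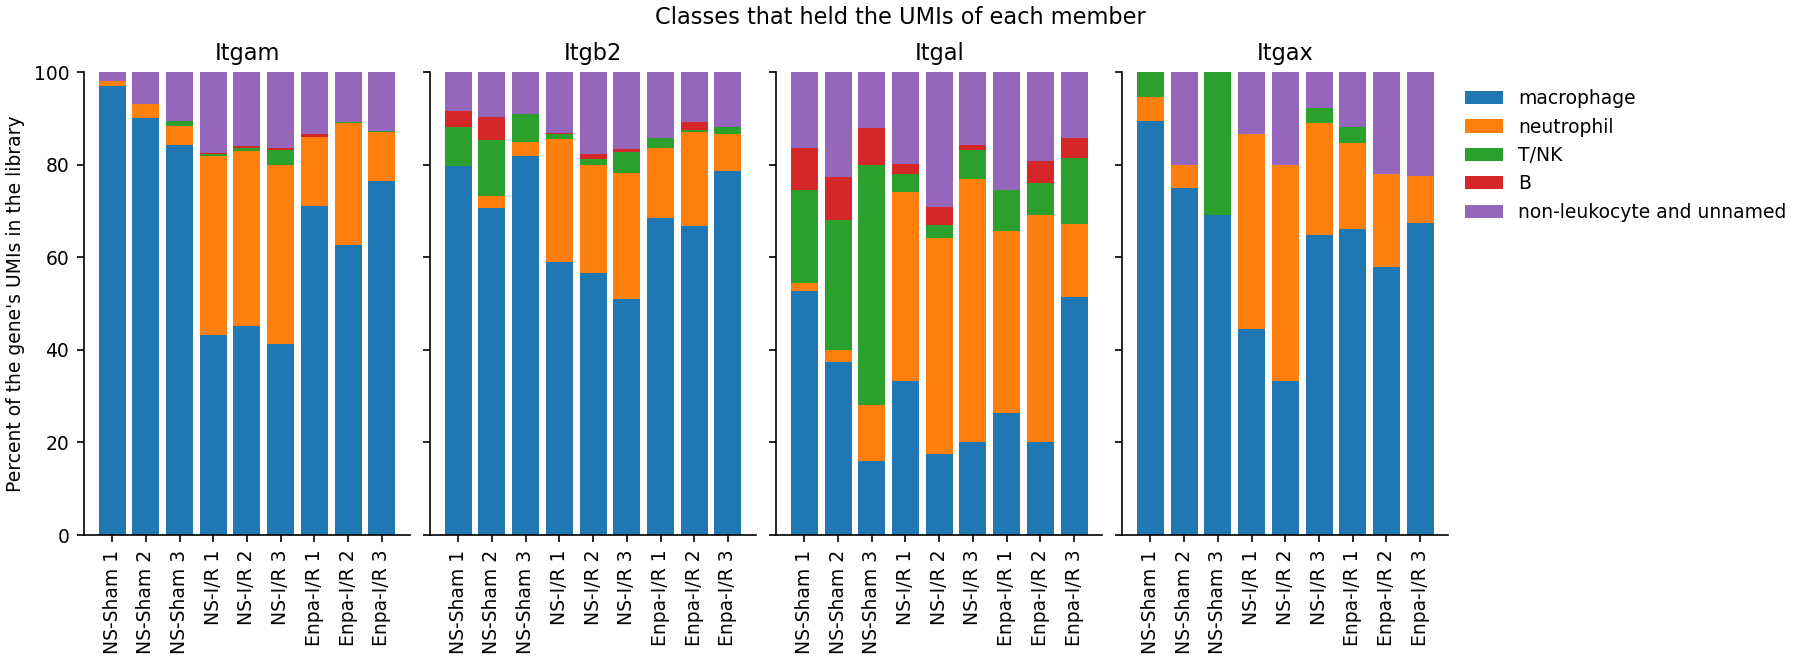
Share of each member's UMIs (% of its UMIs in the library) held by each class, 1 stacked bar per library. Macrophage-like nuclei gave on average 90.5% of Itgam UMIs in the shams and 43.3% after saline I/R, where neutrophil-like nuclei gave 38.3%.

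The partners of the β2 integrins were read from a list of 49 genes in the files. In macrophage-like nuclei they were read over the whole class, whose makeup moved with the groups, and not within finer clusters. For these genes a change of level and a change of makeup cannot be told apart. Among ligands in macrophage-like nuclei, 3 of 5 tested were called after injury, where 35.0% of all genes were. Icam1, the ICAM-1 ligand of both Mac-1 and LFA-1, rose by 0.68 (adjusted p = 0.0443) from a mean of 27.0 to 46.1 CPM, with 33.7 after enpatoran I/R. C3, the source of iC3b, rose by 1.13 (adjusted p = 0.0189), while Edil3, the secreted LFA-1 antagonist also called Del-1, fell by 1.17 (adjusted p = 0.00550), from 119 to 55.9 CPM. Edil3 was higher by 1.51 (adjusted p = 0.00562, edgeR) after enpatoran I/R, at 159 CPM.

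Endothelial-like nuclei, the wall that leukocytes cross, called 2 of 7 ligands after injury, where 34.1% of genes were called. Icam1 rose by 0.91 (adjusted p = 0.0125), from 47.0 to 92.9 CPM, and was 98.4 after enpatoran I/R. Jam3, a junctional ligand of Mac-1, fell by 1.30 (adjusted p = 3.17e-05), from 126 to 54.0 CPM. Between Enpa-I/R and NS-I/R 0 of 7 were called by edgeR, against 6.19% of all genes, and 0 of 7 by DESeq2, against 7.95%. By edgeR 1 of 7 ligands and 3329 of 12468 genes had an unadjusted p under 0.05 in this comparison. Icam1 differed there by 0.14 (adjusted p = 0.740), and against NS-Sham it was higher by 1.05 (adjusted p = 0.0160, edgeR). Jam3 was lower there by a log2 difference of −0.91 (adjusted p = 0.00134), so 2 of 7 ligands were called, against 10.7% of genes. The Icam1 call after injury was lost without NS-Sham replicate 1 (0.78, adjusted p = 0.0610, edgeR), and the one against NS-Sham without that library, NS-Sham replicate 2 or Enpa-I/R replicate 1 (0.66, adjusted p = 0.0735).

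Over the macrophage class, 4 of 14 genes of integrin activation were called after injury, which is below the 35.0% of all genes. Tln1, talin, which binds the β tail, rose by 0.47 (adjusted p = 0.0384), and Vav1, a signalling protein of blood cells, by 0.56 (adjusted p = 0.0181). Vav3 fell by 0.54 (adjusted p = 0.00851). Fyb, the adaptor ADAP that couples SKAP proteins to integrins, fell by 1.03 (adjusted p = 0.00463), from 909 to 464 CPM, and was higher by 1.04 (adjusted p = 0.0199, edgeR) after enpatoran I/R, at 956.

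Of the signalling genes downstream of the integrins, 3 of 12 were called after injury, again below the 35.0% of all genes. Fgr, a Src-family kinase of myeloid cells, rose by 2.20 (adjusted p = 1.57e-05), from 67.0 to 325 CPM, with 233 after enpatoran I/R. Tyrobp, the DAP12 adaptor, rose by 0.62 (adjusted p = 0.0264, edgeR).

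Among other integrins of leukocytes, 2 of 7 were called after injury, in opposite directions, which is below the 35.0% of all genes. Itga5, the α chain of the fibronectin receptor, rose by 2.10 (adjusted p = 3.77e-07), from 51.9 to 235 CPM, with 185 after enpatoran I/R. Itga4, the α chain of the VCAM-1 receptor VLA-4, fell by 1.89 (adjusted p = 3.79e-06), from 387 to 109 CPM, with 167 after enpatoran I/R. Over the whole list 12 of 38 tested genes were called after injury, 7 higher and 5 lower, against 18.1% and 16.9% of all genes, with a median log2 difference of 0.14 beside 0.03 over all genes. Between Enpa-I/R and NS-I/R only Fyb and Edil3 of the 38 were called, a share near the 6.44% of all genes. There, 7 of 38 were called without NS-I/R replicate 3. The share of all genes called in that refit is not given, so this count cannot be set against it. Of the calls after injury described here, those of Edil3, Vav3, Fyb, Fgr, Itga5 and Itga4 held with each of the 9 libraries left out in turn. Leaving out NS-I/R replicate 3 ended the calls of Icam1 (0.66, adjusted p = 0.0628), Vav1 (0.38, adjusted p = 0.0538) and Tyrobp (0.36, adjusted p = 0.108, edgeR). Over the 9 left-out libraries the call was lost 7 times for Icam1 and Tln1, 4 times for Tyrobp, and 3 times for C3 and Vav1. The enpatoran call of Fyb was lost 4 times (adjusted p up to 0.112), and that of Edil3 in none.

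**Figure D5:**
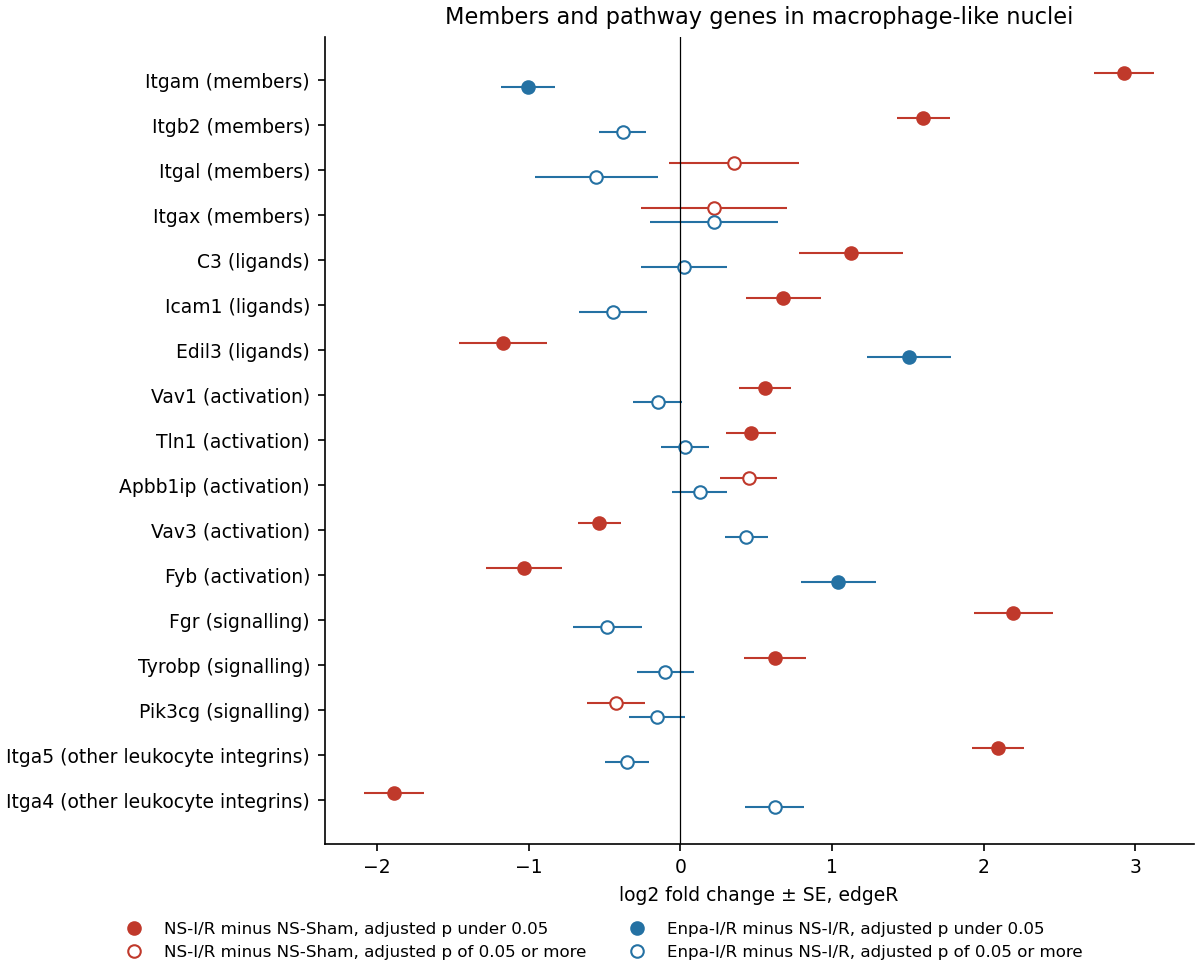
Log2 fold changes ± SE (edgeR) of the 4 members and of partner genes called in at least 1 of the 3 comparisons, in macrophage-like nuclei, with saline I/R against sham in red, enpatoran against saline I/R in blue, and filled points where the adjusted p is under 0.05. Itgam (2.93), Fgr (2.20) and Itga5 (2.10) have the largest rises after injury and Itga4 (−1.89) the largest fall.

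In neutrophil-like nuclei 4 of 36 tested genes of the list were called between Enpa-I/R and NS-I/R, all higher with enpatoran, against 1.28% of all genes called higher. Itga4 was higher by 1.93 (adjusted p = 0.0206), at a mean of 139 against 33.4 CPM. Fgr was higher by 1.02 (adjusted p = 0.0370), at 1184 against 585 CPM, and Fyb by 1.06 (adjusted p = 0.0463, edgeR). These calls depended on which libraries entered: over the 6 left out in turn it was lost 4 times for Itga4 and 5 times for Fgr and Fyb, at adjusted p of up to 0.286, while without NS-I/R replicate 3 all 3 passed. These are the nuclei whose neutrophil marker sum was also higher with enpatoran, as given above.

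The genes whose level most resembled each member's were found over 36 sums of 13 classes by group, among 14173 genes, by Pearson's r of log2(CPM + 1). These sums share libraries, depth and free RNA, so r is a description. Itgam was closest to Cd33 (r = 0.949), Ccr1, Cd300lf, Slfn4 and Csf3r (r = 0.929), which are genes of myeloid cells. Itgb2 was closest to Coro1a (r = 0.953), Pik3r5, Cd53, Nckap1l and Laptm5, which most leukocytes express. Itgal was closest to Bin2 (r = 0.980), Ipcef1, Mir142hg, Selplg and Ptpn22, and Itgax to Cd200r4 (r = 0.927), Cd200r1, Cd300ld, Dok2 and Myo1f. Between members, r was 0.920 for Itgb2 with Itgal, 0.822 with Itgax and 0.781 with Itgam.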

How the data were processed

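The authors deposited raw UMI counts per gene and barcode for each library, written by Cell Ranger 8.0.0 per the file headers; the submitters' processing notes name Cell Ranger 6.1.1, Seurat and the builds GRCh38 and GRCm39, and how introns and strand were counted is not given in the sources used here. Members and gene lists were chosen with earlier results of these data known. Nuclei with at least 500 genes and at most 5% mitochondrial UMIs were kept. Doublets were removed by the highest Scrublet scores, 0.8% per 1000 barcodes (133 to 538 per library), because Scrublet's own threshold called 0 to 308. Nuclei were clustered with scanpy 1.11.5 (2000 variable genes without members or listed partners, 30 components, 15 neighbours, Leiden resolution 1). Clusters were named "X-like" from 3 or more markers of 16 lists, each detected in 5% of nuclei, with a lead of 0.5 log2 units, thresholds set after seeing the data. The UMI sums of each class and library entered edgeR 4.0.16 in R 4.3.3: filterByExpr, TMM scaling, then the quasi-likelihood test, with Benjamini-Hochberg adjustment over all genes of a comparison and a threshold of 0.05. A class was tested only in groups whose libraries all held 25 or more of its nuclei. CPM values are not TMM scaled. The tests were run on simulated counts first, with 200 genes changed by 1 log2 unit between Enpa-I/R and NS-I/R. They recovered 45% of these in macrophage-like nuclei, 11.5% in neutrophil-like nuclei and 53.5% over all nuclei. A change of that size can therefore be missed, most of all in neutrophil-like nuclei. Replicates are separate hearts, and intervals of depth cover counting error only. The 4 members were named in every class; partners were named up to 4 per role and comparison, by size of change among those called whose mean reached 10 CPM, with Icam1 always added; the 5 genes most like each member were named. One called partner is counted but not reported here by name. Alternatives were DESeq2 1.42.0 (test and size factors), no low-count filter, fewer libraries in the fit, a replicate block, each library left out, other limits on genes and mitochondrial UMIs, doublets kept, finer clusters, free RNA subtracted and other thinning. Promoter sequences came from RefSeq.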

Additional observations from a re-analysis of the deposited data

Results flagged for a closer look

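The response of Itgb2 to enpatoran differed between neutrophil-like and macrophage-like nuclei, by 1.07 log2 units (SE 0.29, adjusted p = 0.0398, edgeR interaction term over 12 sums with the library as a block). That of Itgal differed by 1.45 (SE 0.40, adjusted p = 0.0367). In macrophage-like nuclei the Itgb2 values were lower with enpatoran (149 to 166 against 185 to 221 CPM), and in neutrophil-like nuclei they were higher (235.8 to 255.9 against 110.4 to 170.0 CPM). The Itgal values were higher with enpatoran in neutrophil-like nuclei (173 to 262 against 103 to 128 CPM), and its macrophage libraries overlapped. The Itgb2 difference missed the threshold with any 1 library left out, and the Itgal difference with NS-I/R replicate 1, Enpa-I/R replicate 1 or Enpa-I/R replicate 2 left out. The neutrophil marker sum, which was also higher with enpatoran (11625 to 14148 against 5560 to 7539 CPM), and the finer clusters of the neutrophil class move with these values, and their part was not tested.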

How the results depend on the processing

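Of 836 values recomputed for 85 results, 732 kept their direction and their side of the threshold, or stayed within the replicate SD or 1.5 times a count. The cause of the changes below was not tested unless given. The macrophage Itgam difference between Enpa-I/R and NS-I/R missed the threshold within single clusters, at −0.52 and −1.01 in the 2 clusters of resolution 1 and −0.52 and −0.94 in the Mrc1-led and Arg1-led clusters of resolution 2, where fewer nuclei enter. Leiden resolution 2, which leaves the Cd74-led nuclei outside the macrophage class, gave 2.88 for macrophage Itgal after injury, 1.87 for it in Enpa-I/R against NS-Sham, and −0.47 for macrophage Itgax with enpatoran (−0.18 within the Arg1-led cluster). Both Itgal values rest on 9 sham UMIs, so no call is drawn from them. Resolution 2 gave 0.85 for the Itgb2 difference between classes. Macrophage Itgal with enpatoran was 0.20 in cluster 14, and against NS-Sham 0.23 with a mitochondrial limit of 20% and 0.0171 with doublets kept.

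Over all nuclei, Enpa-I/R against NS-I/R passed with DESeq2 for Itgb2 (−0.65) and Itgal (−0.87), with the 20% limit for both (−0.67 and −0.85), and with doublets kept for Itgal (−0.93). Itgax changed sign, at −0.016 with size factors, −0.0156 with DESeq2, −0.0141 with 6 libraries, −0.0783 with the 20% limit and −0.0620 with doublets kept. A minimum of 1000 genes per nucleus ended the Itgax calls after injury (1.23) and for Enpa-I/R against NS-Sham (1.34). Itgal against NS-Sham passed with the 20% limit (1.00) and with doublets kept (0.91). With doublets kept the difference between classes missed the threshold for Itgb2 (0.87) and Itgal (1.33).

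No sign was seen that the replicate numbers pair the hearts. Same-numbered libraries correlated at −0.141 to 0.0535 over all nuclei, in 0 of 9 pairs above 0.1, and other pairs at −0.0856 to 0.136. With 3 libraries per group this check could miss a pairing. With the replicate number as a block, Itgax over all nuclei in Enpa-I/R against NS-Sham was 1.40 (adjusted p = 0.0539) and macrophage Itgax after injury −0.00347. At 500 UMIs the thinned share of Itgal (Enpa-I/R against NS-Sham) differed by −0.254 and that of Itgax (after injury) by −0.146 percentage points. Free RNA per nucleus with the 20% limit was 0.00391 for Itgam and 0.00194 for Itgb2 in the shams and 0.0195 for Itgb2 after saline I/R. With doublets kept it was 0.00121 for Itgb2 in the shams, and 0.199, 0.0226, 0.0112 and 0.00217 for Itgam, Itgb2, Itgal and Itgax after saline I/R.

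Leaving out each library in turn gave these lowest and highest values. In macrophage-like nuclei, Itgal ranged from −0.0469 to 0.82 and Itgax from −0.64 to 0.60 after injury. With enpatoran, Itgb2 ranged from −0.44 to −0.32 and Itgax from −0.14 to 1.10, and Itgal against NS-Sham from −0.59 to 0.28. In neutrophil-like nuclei Itgam ranged from −0.99 to −0.45 and Itgal from 0.71 to 0.99. Over all nuclei Itgax ranged from 0.84 to 1.73 after injury, from −0.34 to 0.55 with enpatoran and from 1.14 to 1.59 against NS-Sham. With enpatoran Itgb2 ranged there from −0.88 to −0.50 and Itgal from −1.07 to −0.73. The difference between classes ranged from 0.88 to 1.06 for Itgb2, from 1.01 to 1.80 for Itgal and from −0.14 to 1.24 for Itgax. The thinned Itgax share ranged from −0.449 to 0.818 percentage points after injury and from −0.162 to 1.11 with enpatoran. Partner genes called in macrophage-like nuclei numbered 7 to 12 after injury, 1 to 7 with enpatoran and 3 to 11 against NS-Sham. They numbered 0 to 13 in neutrophil-like nuclei, and endothelial ligands 1 to 3 after injury and 1 to 2 against NS-Sham. The shares of all genes called in these refits are not given, so the counts show only their dependence on single libraries.

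No fit within finer neutrophil clusters was run, since none held 25 nuclei in every library, and alternatives for T/NK-like and B-like nuclei were not run because those classes were given as values. Depth limits Itgal and Itgax most, with 61 and 41 UMIs in all NS-Sham macrophage-like nuclei.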
